A study of Mus musculus with 8 samples.

Results

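Genes of glutathione metabolism, the thioredoxin system and the enzymes that remove superoxide and peroxides were examined in the hindlimb long bones of mice given doxorubicin. The members were the protein-coding genes of the deposited table whose symbol belongs to the glutathione S-transferase, glutathione peroxidase, peroxiredoxin, thioredoxin, thioredoxin reductase or superoxide dismutase families, or is Cat, Gclc, Gclm, Gss, Gsr, Slc7a11, Nfe2l2, Keap1, Srxn1 or Nqo1. This gave 57 genes of 55421 in the table. Of these, 49 had enough counts to be tested, and 8 were too low (Gpx2, Gpx5, Gpx6, Gsta1, Gsta2, Gstm3, Gsto2 and Gstt4). All mice were wild-type C57BL/6 males aged 15 weeks at the start. The DoxoR group was 4 mice given a single intraperitoneal dose of doxorubicin at 10 mg/kg, and the CTRL group was 4 mice given saline. On day 30 both tibiae and both femurs were stripped, trimmed of their epiphyses and spun to remove marrow, and the bones of a mouse together gave 1 polyadenylated RNA library. The series presents the treatment as a model of senescence after chemotherapy. The comparison therefore asked how the antioxidant genes stood in bone 30 days after the drug.

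Glutathione is a small peptide of glutamate, cysteine and glycine that keeps cell proteins reduced. Cystine enters the cell through the antiporter encoded by Slc7a11, glutamate-cysteine ligase (Gclc and Gclm) makes the rate-limiting bond, and glutathione synthetase (Gss) adds glycine. Peroxidases use glutathione or thioredoxin to remove peroxides, glutathione S-transferases couple it to reactive molecules, and reductases restore both carriers with NADPH. The transcription factor NRF2, encoded by Nfe2l2, drives many of these genes and is held in check by KEAP1. Doxorubicin can cycle between redox states in cells and so give rise to superoxide, and red cell precursors, neutrophils and muscle are known to be rich in particular members of these families.

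The libraries held between 23699525 and 35747083 counts, and the members together took between 0.325% and 0.451% of a DoxoR library and between 0.340% and 0.447% of a CTRL library. Levels are given as CPM, counts scaled to the library size, which was corrected for composition by the TMM method. Osteoblast and osteocyte markers were all present. Marrow was not absent either: the 14 erythroid markers summed to between 14146 and 30520 CPM in DoxoR and between 18126 and 35671 CPM in CTRL bones, and all 14 had log2 fold changes below 0. The 12 skeletal muscle markers summed to between 15308 and 39520 CPM in DoxoR and between 4798 and 27527 CPM in CTRL bones, with CTRL 3 the lowest, and all 12 were above 0. The 11 neutrophil markers summed to between 10517 and 21435 CPM in DoxoR and between 13002 and 23127 CPM in CTRL bones. The 10 osteoblast markers, 9 above 0 and 1 below, summed to between 4636 and 16904 CPM in DoxoR and between 4647 and 11728 CPM in CTRL bones. All 8 osteoclast and all 5 chondrocyte markers had log2 fold changes above 0, and all 10 megakaryocyte and all 8 macrophage markers below 0. In bulk bone RNA, fewer cells of a type and less RNA per cell cannot be told apart.

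The sequences just before the start sites of Slc7a11, Gclm and Srxn1 are shown because these genes carry the results on cystine import, glutathione synthesis and sulfiredoxin below and are known NRF2 targets. Each is the 250 bases before the RefSeq start site, on GRCm38.p6, written 5′ to 3′ on the strand of the gene. The windows lie at chr3:50443614-50443863, minus strand, for Slc7a11, at chr3:122245307-122245556, plus strand, for Gclm and at chr2:152105274-152105523, plus strand, for Srxn1. Capitals mark the letters TGANNNNGC, the core of the antioxidant response element that NRF2 binds, and TGATGCAA, a core of the amino acid response element that ATF4 binds, on either strand (GCNNNNTCA and TTGCATCA on the opposite strand).
Slc7a11: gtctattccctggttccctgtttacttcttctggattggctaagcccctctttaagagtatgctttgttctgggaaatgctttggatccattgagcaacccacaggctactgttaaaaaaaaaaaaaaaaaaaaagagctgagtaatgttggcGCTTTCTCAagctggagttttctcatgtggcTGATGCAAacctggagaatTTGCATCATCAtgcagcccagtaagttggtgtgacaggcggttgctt
Gclm: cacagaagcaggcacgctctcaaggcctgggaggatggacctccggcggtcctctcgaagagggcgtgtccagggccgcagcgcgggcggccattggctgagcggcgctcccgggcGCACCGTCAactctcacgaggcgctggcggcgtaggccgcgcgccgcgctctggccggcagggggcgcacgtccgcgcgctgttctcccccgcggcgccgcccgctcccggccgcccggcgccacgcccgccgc
Srxn1: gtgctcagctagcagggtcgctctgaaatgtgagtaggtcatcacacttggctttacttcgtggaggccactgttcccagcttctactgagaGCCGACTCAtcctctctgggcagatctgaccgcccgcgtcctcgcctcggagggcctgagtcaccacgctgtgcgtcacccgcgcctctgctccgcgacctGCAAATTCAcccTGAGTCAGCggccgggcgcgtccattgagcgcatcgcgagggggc
TGANNNNGC occurred in 27 of the 51 members with a window in the table (52.9%), against 10448 of all 27025 genes (38.7%). Srxn1 held TGAGTCAGC, whose first base lies 45 bases before the start site, beside a pair of opposite-strand matches, and Gclm held 1 opposite-strand match 134 bases before it. TGATGCAA occurred in 1 member, Slc7a11, against 248 of all genes (0.918%). Slc7a11 held it on each strand, 66 and 47 bases before the start site, and it was 1 of 2 genes in the whole table with more than 1 copy. The copy at 47 overlaps a TGANNNNGC match at 45. These letters are matches in a window and were not tested for binding. Both motifs were chosen with the results of the comparison known.

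No antioxidant gene passed the test between the groups. In edgeR's quasi-likelihood test, 0 of the 49 tested members had an adjusted p under 0.05, as did 0 of all 17035 tested genes (0%), and the smallest adjusted p of a member was 0.706. At an unadjusted p under 0.05 there were 4 members, Slc7a11, Gclc and Gclm on the lower side and Gstm2 on the higher side. That is 8.16% of the members, against 5.36% of all genes tested. The share on the lower side of all genes was 3.23% and on the higher side 2.13%. DESeq2 and limma-voom also called 0 members after adjustment, against 29 and 0 of all genes. Each had 5 members at an unadjusted p under 0.05, the same 4 and Sod3. The share of all genes was 5.59% in DESeq2 and 5.52% in limma-voom. The count of 4 was 7 without DoxoR 3, with 7.73% of all genes, and 2 without DoxoR 4, with 3.68%. Of the 49 members, 0 had groups that did not overlap, against 3.59% of all genes (1.64% higher and 1.95% lower in DoxoR). This count was 7 without DoxoR 3, where the share of all genes was 8.85%, and 5 without CTRL 4, where it was 10.7%. With any 1 DoxoR library or CTRL 4 left out, Gpx5 passed the filter through its CTRL counts alone and was among both counts. Its place in them follows from how it entered and is no support. The median log2 fold change (DoxoR over CTRL) of the members was 0.026, against 0.036 over all genes. Of the members, 47 lay within 1.5-fold in either direction, the exceptions being Slc7a11 and Sod3.

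**Figure D1:**
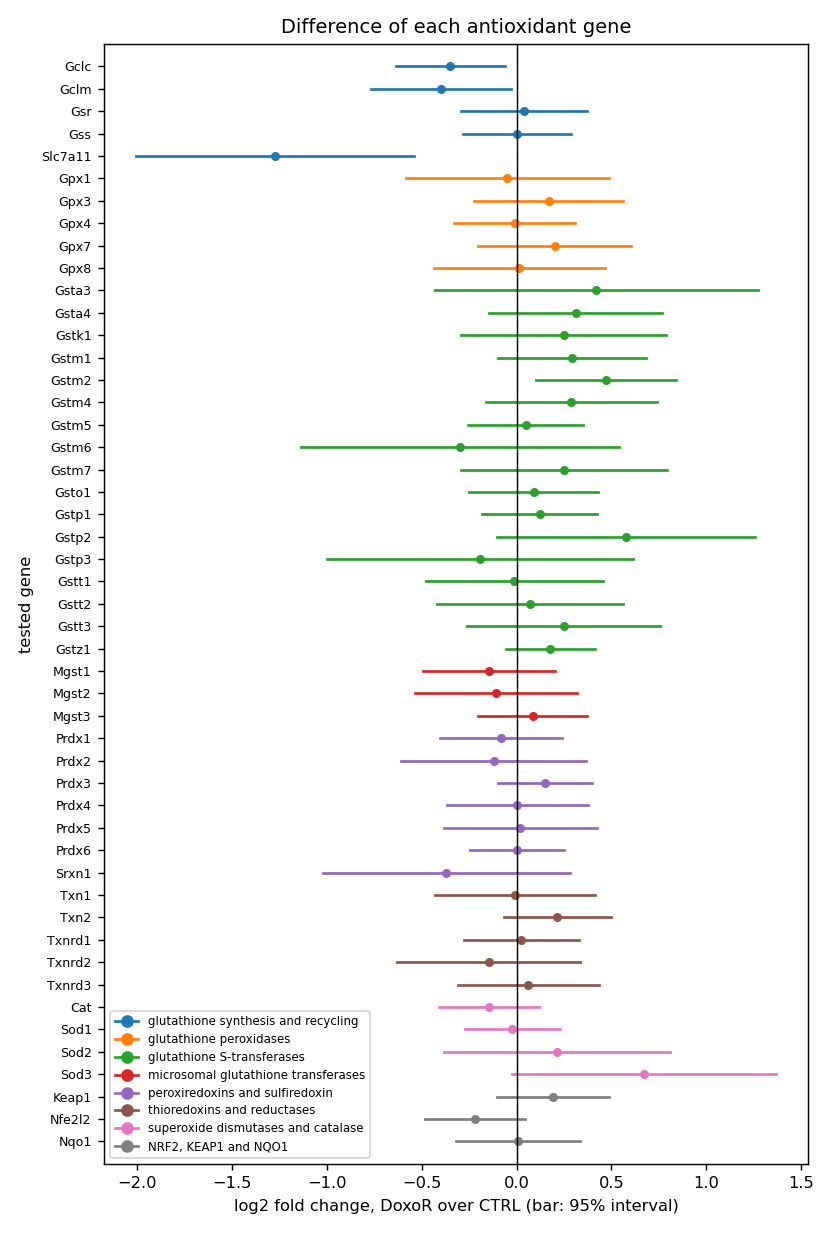
Log2 fold change (DoxoR over CTRL, horizontal axis) of the 49 tested antioxidant genes, grouped by role from top to bottom, with bars for the 95% interval from edgeR's quasi-likelihood fit. The Slc7a11 interval runs from -2.01 to -0.54, the intervals of Gclc, Gclm and Gstm2 also leave out 0, and all others include 0 before any adjustment for the number of genes.

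Slc7a11, the cystine antiporter gene, had the most negative value of the tested members. The gene lies on the minus strand of chromosome 3, 49892526 to 50443614 (GRCm38). It stood at 7.74, 6.73, 4.51 and 4.65 CPM in DoxoR 1 to 4, against 19.7, 19.0, 11.7 and 6.82 CPM in CTRL 1 to 4. All DoxoR bones were low and close together, CTRL 1 and CTRL 2 were high, and CTRL 4 lay among the DoxoR bones, so the groups overlapped. The log2 difference was -1.27 ± 0.33 (SE) and the adjusted p was 0.706 by edgeR's quasi-likelihood test, against 0.0662 by DESeq2. With any 1 library left out it lay between -1.54 and -1.08. It was -1.48 with a covariate for erythroid and neutrophil markers and -1.37 with one for skeletal muscle markers. With CTRL 1 and CTRL 2 left out together, a choice made after seeing the data, it was -0.65. These were the highest libraries for Slc7a11, so a smaller difference follows from the choice.

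The RNA of both subunits of glutamate-cysteine ligase, the rate-limiting enzyme, averaged lower in DoxoR than in CTRL bones, and neither passed the test. Gclc, the catalytic subunit (chromosome 9, 77754535 to 77794485), stood at 37.0, 36.9, 49.1 and 34.4 CPM in DoxoR 1 to 4, against 48.6, 46.1, 52.4 and 53.5 CPM in CTRL 1 to 4. Gclm, the modifier subunit (chromosome 3, 122245557 to 122270732), stood at 51.4, 63.2, 86.9 and 55.8 CPM in DoxoR 1 to 4, against 74.3, 83.2, 94.2 and 87.1 CPM in CTRL 1 to 4. For each subunit 3 DoxoR bones were below all CTRL bones, and DoxoR 3 lay among the CTRL bones. The log2 difference was -0.35 ± 0.13 for Gclc and -0.40 ± 0.17 for Gclm (SE), both with an adjusted p of 0.856 in edgeR's quasi-likelihood test. Without DoxoR 3, that of Gclm was -0.60. DoxoR 3 also had the highest erythroid marker sum of the DoxoR bones, and the log2 CPM of Gclc and Gclm followed the mean of the erythroid markers over the 8 libraries with Pearson r of 0.88 each, which did not pass adjustment (exact permutation, adjusted p of 0.125 and 0.121). Spearman's rho was 0.93 and 0.90 (exact permutation, adjusted p of 0.0729 and 0.0813), and r was 0.87 and 0.90 without CTRL 4 and DoxoR 3. With library size as the only scaling both passed by r (exact permutation, adjusted p of 0.0224 and 0.0340). With a covariate for erythroid and neutrophil markers the differences were -0.26 and -0.27. In edgeR's quasi-likelihood test the unadjusted p was then 0.024 for Gclc and 0.023 for Gclm, against 0.022 and 0.038 without the covariate. The adjusted p with it was 0.707 for both.

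The other glutathione enzymes lay close to 0. Gss, which finishes the peptide, averaged 7.17 ± 0.653 CPM in DoxoR and 7.15 ± 0.573 CPM in CTRL bones (SD, n = 4 each), and the 95% interval of its log2 difference ran from -0.28 to 0.29. Gsr, which reduces oxidised glutathione, stood at 180, 206, 263 and 262 CPM in DoxoR 1 to 4 and at 221, 230, 238 and 196 CPM in CTRL 1 to 4, with an interval from -0.29 to 0.37.

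**Figure D2:**
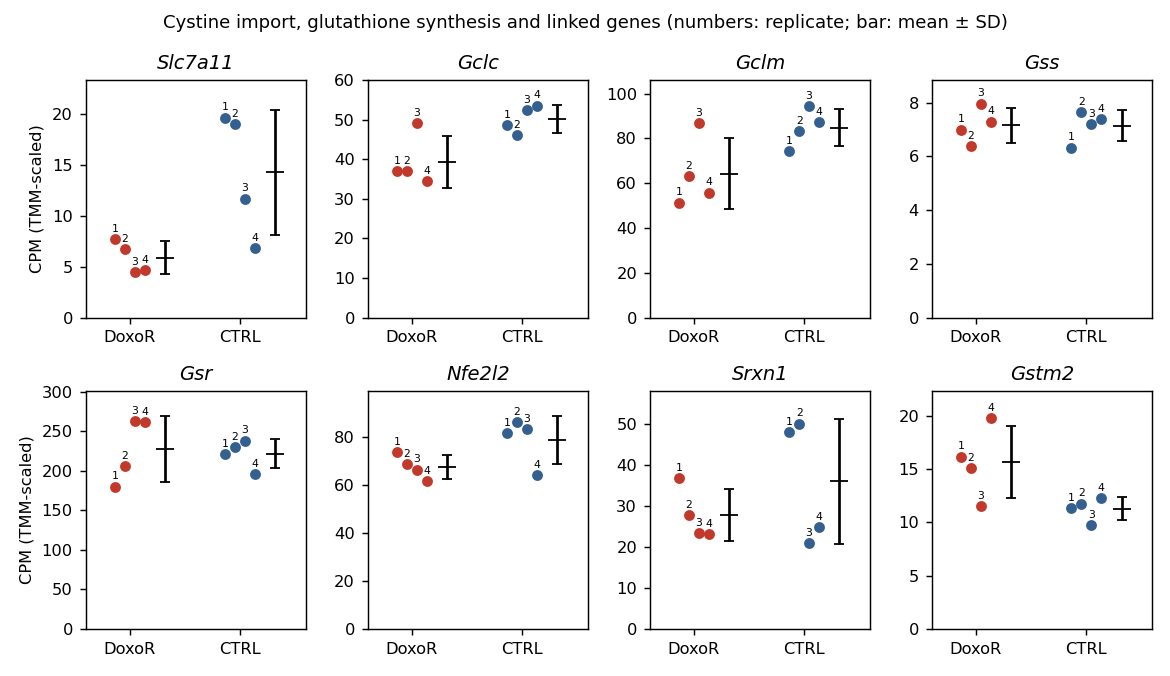
CPM per library (points, labelled with the replicate number, DoxoR left of CTRL in each panel) of the 5 genes of cystine import, glutathione synthesis and recycling and of Nfe2l2, Srxn1 and Gstm2, with mean ± SD of the 4 mice to the right of each group. Slc7a11 and Srxn1 were highest in CTRL 1 and CTRL 2, whereas Gclc and Gclm were low in every DoxoR bone except DoxoR 3.

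Among the regulators, Nfe2l2 stood at 73.5, 68.6, 66.4 and 61.6 CPM in DoxoR 1 to 4 and at 81.6, 86.0, 83.4 and 64.1 CPM in CTRL 1 to 4. All DoxoR bones were below 3 of the 4 CTRL bones, with CTRL 4 the exception. The log2 difference was -0.22 ± 0.12 (SE, adjusted p of 0.856 in edgeR's quasi-likelihood test), and it was -0.34 without CTRL 4. Keap1, the inhibitor of NRF2, averaged 41.5 ± 3.14 CPM in DoxoR and 36.3 ± 5.98 CPM in CTRL bones (SD, n = 4 each). The log2 difference of Keap1 was 0.19, and 0.066 without CTRL 3. Nqo1, a quinone reductase and classic NRF2 target, averaged 9.42 ± 1.11 and 9.39 ± 1.38 CPM in DoxoR and CTRL bones (SD, n = 4 each). The direction of Nqo1 turned under other scalings.

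Srxn1, the sulfiredoxin that repairs overoxidised peroxiredoxins, varied widely between the CTRL mice. It stood at 36.8, 27.7, 23.3 and 23.1 CPM in DoxoR 1 to 4 and at 48.0, 50.02, 20.9 and 24.7 CPM in CTRL 1 to 4. CTRL 1 and CTRL 2 were high, CTRL 4 was in the DoxoR range and CTRL 3 was the lowest of the 8 libraries. The log2 difference was -0.37 ± 0.29 (SE), and it was -0.60 without CTRL 3 and -0.19 without CTRL 2. With the erythroid and neutrophil marker covariate and with the skeletal muscle one it was -0.53 each. Without CTRL 1 and CTRL 2 together, a choice made after seeing the data, it was 0.28. These were the highest libraries for Srxn1, so a shift upward follows from the choice. The SD of log2 CPM within groups was 0.57 for Slc7a11, the largest of the tested members, and 0.51 for Srxn1, against a median of 0.26 over the members and 0.26 over all genes.

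Of the members, the glutathione peroxidase genes Gpx1, Gpx3 and Gpx4 held the highest levels per length, and the others of that family were lower. Per kilobase of annotated exon, Gpx1, the cytosolic selenium enzyme, averaged 369 ± 122 CPM in DoxoR and 382 ± 78.0 CPM in CTRL bones, and Gpx3, the secreted enzyme of plasma, 363 ± 77.2 CPM in DoxoR and 323 ± 27.2 CPM in CTRL bones (SD, n = 4 each). The ranges of these 2 genes overlapped in both groups. Gpx4, which protects membranes from lipid peroxides, came next at 150 ± 10.9 and 151 ± 25.0 CPM per kilobase in DoxoR and CTRL bones, and Txn1, cytosolic thioredoxin, at 114 ± 26.8 and 115 ± 22.5 (SD, n = 4 each). The lowest CTRL value of Gpx1, 285 CPM per kilobase, lay above the highest of Gpx4, 174. Slc7a11, Gss and Sod3 were far lower, with means of 0.424, 1.21 and 0.872 CPM per kilobase in DoxoR and 1.03, 1.21 and 0.550 in CTRL bones.

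Within the peroxidase family, Gpx1 stood at 418, 444, 794 and 472 CPM in DoxoR 1 to 4 and at 411, 541, 685 and 563 CPM in CTRL 1 to 4. Gpx3 stood at 848, 633, 510 and 641 CPM in DoxoR 1 to 4 and at 582, 517, 609 and 631 CPM in CTRL 1 to 4. DoxoR 3 had the highest Gpx1 and the lowest Gpx3 of all libraries. Gpx4 stood at 273, 231, 267 and 264 CPM in DoxoR 1 to 4 and at 212, 299, 294 and 237 CPM in CTRL 1 to 4. The 95% interval of the log2 difference of Gpx4 ran from -0.33 to 0.31. The log2 difference of Gpx3, 0.17, and that of Gpx7, an endoplasmic reticulum peroxidase, 0.20, were 0.0071 and 0.045 without DoxoR 1. That of Gpx1, -0.048, was -0.33 without DoxoR 3. Gpx8 had a log2 difference of 0.014, and Gpx2, known from the gut, had at most 1 count in a library.

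Gpx5, a peroxidase secreted by the epididymis, was read in CTRL bones. It lies on the minus strand of chromosome 13, 21286429 to 21292731. It had 3, 0, 0 and 0 counts in DoxoR 1 to 4, against 166, 57, 24 and 6 counts in CTRL 1 to 4, which in CTRL is between 0.20 and 6.22 CPM. It was too low to be tested with all libraries. In the fit with no filter it was among the members with an unadjusted p under 0.05, and it was the 1 member whose groups did not overlap there, against 2.77% of all genes. A count of 0 in a library allows up to 3 counts, and this covers counting error only. Its neighbour Gpx6, which lies on the same chromosome, had 0 counts in every library.

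Other male reproductive tract genes were therefore listed after the Gpx5 values were seen. The 22 epididymis genes summed to 9, 19, 16 and 12 counts in DoxoR 1 to 4, against 108, 31, 38 and 29 counts in CTRL 1 to 4, and 2 of them had no count in any library. The 5 seminal vesicle genes summed to 12, 26, 15 and 9 counts in DoxoR 1 to 4, against 182, 67, 91 and 38 counts in CTRL 1 to 4. CTRL 1 was highest in all 3 measures and every CTRL sum lay above every DoxoR sum. Among the single genes, the seminal vesicle secretory gene Svs6 had 2, 0, 0 and 0 counts in DoxoR 1 to 4 and 43, 17, 13 and 7 counts in CTRL 1 to 4. The epididymal genes Lcn8 and Adam7 had 18 and 14 counts in CTRL 1. The part of these transcripts in the other results was not tested. Slc7a11, Srxn1 and, of the other NRF2 targets, Ugdh, Mt1 and Mt2 were highest in CTRL 1 and CTRL 2. Hmox1, Blvrb and Ftl1 of the same list were highest in other libraries. Ugdh, Mt1 and Mt2 are named after their values were seen, and a link of this order to the reproductive tract genes was not tested.

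**Figure D3:**
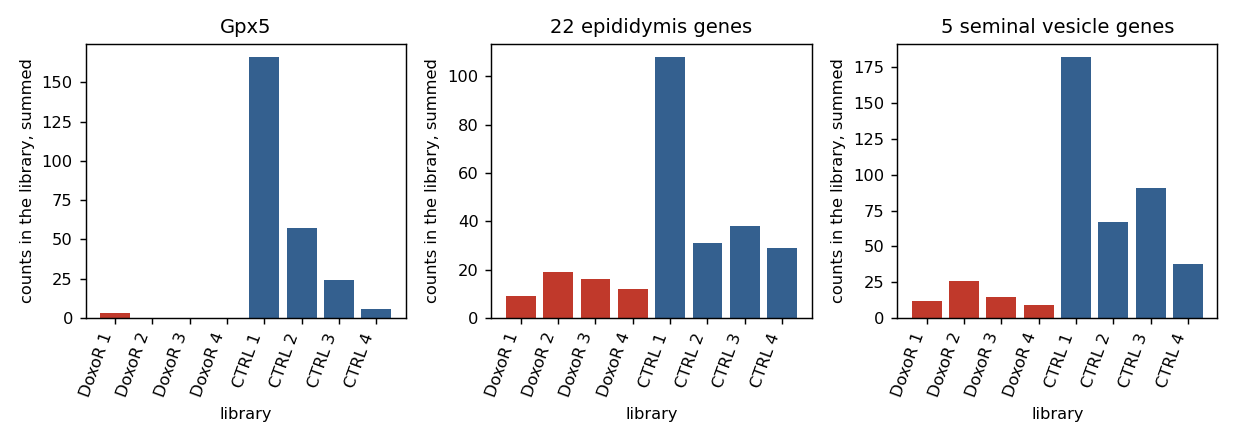
Counts per library (vertical axis, DoxoR in red left of CTRL in blue) of Gpx5, of 22 epididymis genes summed and of 5 seminal vesicle genes summed. Gpx5 reached 166 counts in CTRL 1 and at most 3 in a DoxoR bone, and both sums were highest in CTRL 1.

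The glutathione S-transferases, which couple glutathione to reactive molecules, lay mostly on the higher side. Of the 17 tested of 22, 14 had log2 fold changes above 0 and 3 below (17.6% below, against 42.8% of all genes), and 0 passed the test. Their median was 0.25, against 0.036 over all genes. Gstm2, of the mu class (chromosome 3, 107981702 to 107986453), stood at 16.2, 15.1, 11.6 and 19.8 CPM in DoxoR 1 to 4, against 11.4, 11.8, 9.77 and 12.3 CPM in CTRL 1 to 4. All DoxoR bones except DoxoR 3 were above all CTRL bones, and the log2 difference was 0.47 ± 0.17 (SE, adjusted p of 0.856 in edgeR's quasi-likelihood test). Gstm1 stood at 35.5, 37.5, 38.3 and 44.0 CPM in DoxoR 1 to 4 and at 28.1, 30.2, 24.6 and 44.1 CPM in CTRL 1 to 4. Its log2 difference, 0.29, was 0.46 without CTRL 4 and 0.15 without CTRL 3. Gstp2, of the pi class, stood at 18.2, 12.2, 10.9 and 18.3 CPM in DoxoR 1 to 4 and at 12.03, 13.8, 4.80 and 9.42 CPM in CTRL 1 to 4, a log2 difference of 0.58 ± 0.31 (SE). For Gstp2 this was 0.30 without CTRL 3. Without CTRL 1 and CTRL 2 together it was 1.07, but these were its highest CTRL libraries and the choice was made after seeing the data. It was 0.32 with a covariate for skeletal muscle markers and 0.38 with one for erythroid and neutrophil markers. In edgeR's quasi-likelihood test the unadjusted p was 0.037 and 0.16 with these covariates, against 0.087 without. The adjusted p was 0.87 and 0.79 with them. Over the 8 libraries Gstp2 had r = 0.94 with the muscle markers (adjusted p of 0.0521 by exact permutation; rho = 0.81, adjusted p of 0.186), and 0.77 without CTRL 3 and DoxoR 3. CTRL 3, with the least muscle signal, was the lowest library for Gstp1, Gstp2, Gstm1 and Gstm2. With the muscle markers r was 0.57 for Gstm1 and 0.69 for Gstm2 (adjusted p of 0.364 and 0.238 by exact permutation). Without CTRL 3 and DoxoR 3 these r values were 0.096 and 0.48.

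Several transferases share long stretches of sequence, so their values are uncertain. The longest protein-coding transcripts of Gstp1 and Gstp2 were 98.2% identical over 707 aligned bases, and the estimation of counts could move reads between them. Pairs of tested mu class genes were between 73.6% and 86.9% identical over their aligned stretch. Gsta4, which acts on the lipid aldehyde hydroxynonenal, averaged 4.17 ± 1.14 CPM in DoxoR and 3.35 ± 0.143 CPM in CTRL bones, and Gstz1, of tyrosine breakdown, 23.1 ± 2.22 and 20.4 ± 0.861 CPM in DoxoR and CTRL bones (SD, n = 4 each). Their log2 differences were 0.31 and 0.18, and were 0.15 without DoxoR 4 for Gsta4 and 0.094 without DoxoR 1 for Gstz1. The 3 tested transferases below 0 were Gstm6, Gstp3 and Gstt1, at -0.30, -0.19 and -0.012. The microsomal enzymes Mgst1, Mgst2 and Mgst3 had log2 differences of -0.15, -0.11 and 0.084.

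Peroxiredoxins, the thiol peroxidases that thioredoxin recharges, lay close to 0. Prdx1 stood at 198, 205, 227 and 202 CPM in DoxoR 1 to 4 and at 190, 244, 264 and 183 CPM in CTRL 1 to 4. Prdx2, abundant in red cells, stood at 171, 177, 313 and 172 CPM in DoxoR 1 to 4 and at 188, 205, 267 and 246 CPM in CTRL 1 to 4. DoxoR 3 was the highest library for Prdx2, and the other 3 DoxoR bones were below all CTRL bones, so that the log2 difference of -0.12 ± 0.22 (SE) was -0.41 without DoxoR 3. The other peroxiredoxins, Prdx3 to Prdx6, ranged from 0.0036 to 0.15 in log2 difference.

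In the thioredoxin system, Txn1 stood at 97.4, 99.2, 158 and 125 CPM in DoxoR 1 to 4 and at 98.5, 124, 152 and 107 CPM in CTRL 1 to 4. DoxoR 3 and CTRL 3 were the high libraries. Txn2, the mitochondrial thioredoxin, stood at 69.9, 55.5, 61.2 and 64.8 CPM in DoxoR 1 to 4 and at 58.4, 58.8, 43.5 and 55.8 CPM in CTRL 1 to 4, a log2 difference of 0.22 that was 0.083 without CTRL 3. Txnrd1, the cytosolic reductase and an NRF2 target, averaged 50.9 ± 3.78 and 50.05 ± 8.57 CPM in DoxoR and CTRL bones (SD, n = 4 each), and the 95% interval of its log2 difference ran from -0.28 to 0.33. Txnrd2, of mitochondria, and Txnrd3, known from the testis, had log2 differences of -0.15 and 0.063.

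Among the superoxide dismutases, extracellular Sod3 had the highest log2 difference of the tested members. It stood at 3.26, 4.33, 2.80 and 2.65 CPM in DoxoR 1 to 4 and at 3.07, 1.40, 1.22 and 2.53 CPM in CTRL 1 to 4. CTRL 2 and CTRL 3 were low and CTRL 1 lay within the DoxoR range. The log2 difference was 0.67 ± 0.31 (SE, adjusted p of 0.856 in edgeR's quasi-likelihood test), and it was 0.44 without CTRL 3. Mitochondrial Sod2 stood at 152, 96.7, 74.7 and 132 CPM in DoxoR 1 to 4 and at 122, 108, 56.8 and 106 CPM in CTRL 1 to 4, with CTRL 3 and DoxoR 3 low. Its log2 difference of 0.22 was -0.014 without CTRL 3. Cytosolic Sod1 averaged 127 ± 8.01 and 129 ± 14.1 CPM, and Cat, the peroxisomal catalase, 92.8 ± 5.64 and 103 ± 13.9 CPM in DoxoR and CTRL bones (SD, n = 4 each). The log2 difference of Cat was -0.15, and -0.088 without CTRL 4.

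**Figure D4:**
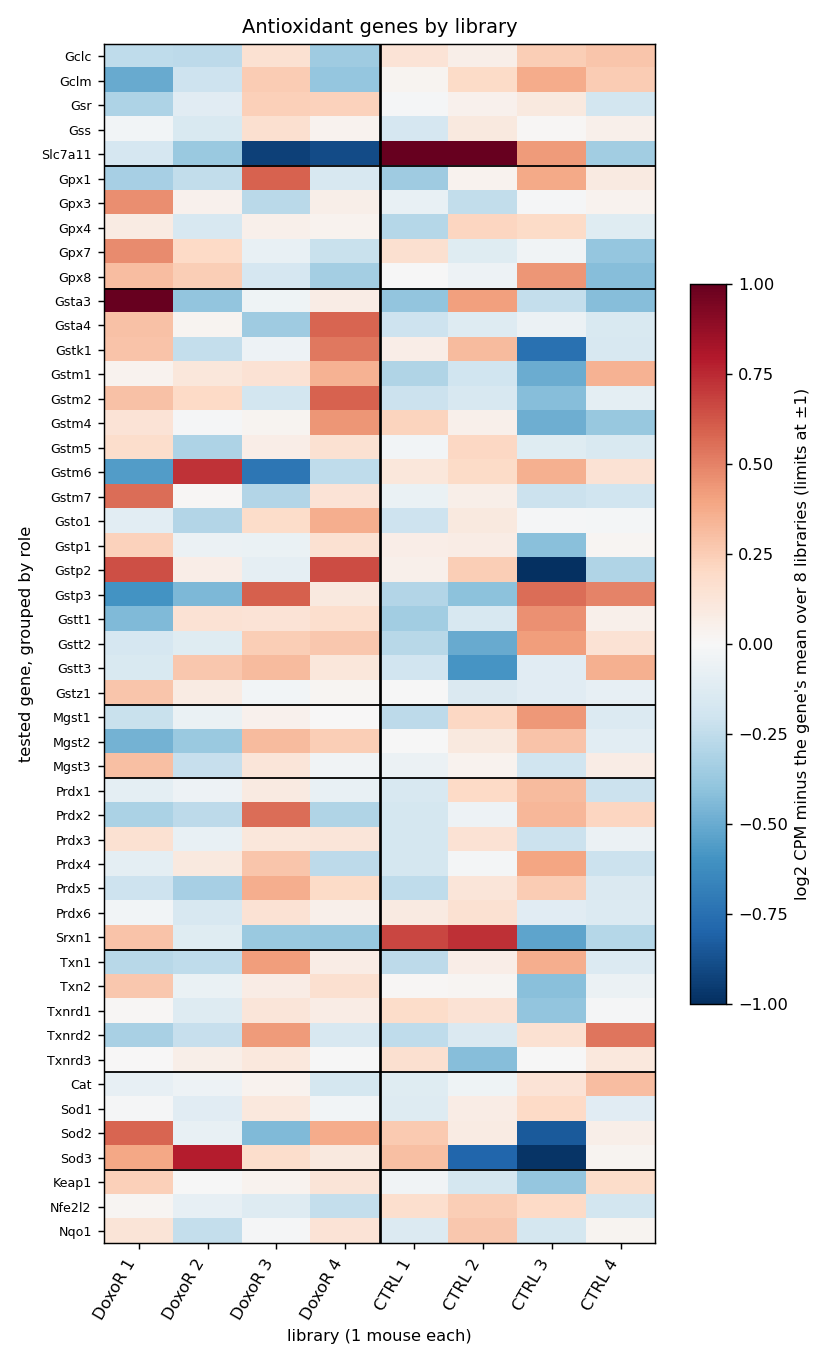
Log2 CPM of each tested antioxidant gene (rows, grouped by role) in each library (columns, DoxoR left of CTRL), minus the mean of the gene over the 8 libraries; colours stop at 1 in either direction. Slc7a11 and Srxn1 were highest in CTRL 1 and CTRL 2, and CTRL 3 was lowest for Sod2, Sod3, Gstk1 and Gstp2.

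Some of the variation between mice ran along with cell type markers. Pearson and Spearman correlations of each tested member with the mean log2 CPM of erythroid, neutrophil, skeletal muscle and osteoblast markers were computed over the 8 libraries, 196 relations in all, with exact permutation of the libraries and Benjamini-Hochberg adjustment over all of them. By Pearson's r, 7 passed an adjusted p of 0.05, all of them positive: 2 with erythroid, 3 with neutrophil, 2 with skeletal muscle and 0 with osteoblast markers.

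With erythroid markers these were Prdx2 (r = 0.93, adjusted p of 0.0446 by exact permutation; rho = 0.90, adjusted p of 0.0813) and Cat (r = 0.87, adjusted p of 0.0472 by exact permutation; rho = 0.90, adjusted p of 0.0813). Without CTRL 4 and DoxoR 3, the libraries farthest from the median, r was 0.95 and 0.93. Prdx2 and Cat are both abundant in red cells. With neutrophil markers they were Txn1 (r = 0.96, adjusted p of 0.0146 by exact permutation; rho = 0.98, adjusted p of 0.0194), Prdx5 (r = 0.96, adjusted p of 0.0204 by exact permutation; rho = 0.93, adjusted p of 0.0729) and Mgst2, an enzyme that can make leukotriene C4 (r = 0.95, adjusted p of 0.0146 by exact permutation; rho = 0.98, adjusted p of 0.0194). Without DoxoR 3 and DoxoR 1, r was 0.94 for Txn1, 0.98 for Prdx5 and 0.94 for Mgst2.

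With skeletal muscle markers they were Sod2 (r = 0.96, adjusted p of 0.00486 by exact permutation; rho = 1.00, adjusted p of 0.00972) and Gstp1 (r = 0.99, adjusted p of 0.00486 by exact permutation; rho = 0.98, adjusted p of 0.0194). Sod2, the mitochondrial dismutase, stood in the same order over the 8 libraries as the muscle markers. Without CTRL 3 and DoxoR 3, r was 0.95 for Sod2 and 0.99 for Gstp1. With library size as the only scaling, Gstp1 no longer passed (r = 0.85, adjusted p of 0.135 by exact permutation). The correlations pool both groups, since 4 mice in a group are too few for a value within it, and the libraries share their scaling. Slc7a11 had r = -0.052 with the erythroid list and -0.10 with the muscle list. Without the 2 farthest libraries these were 0.56 and -0.17.

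**Figure D5:**
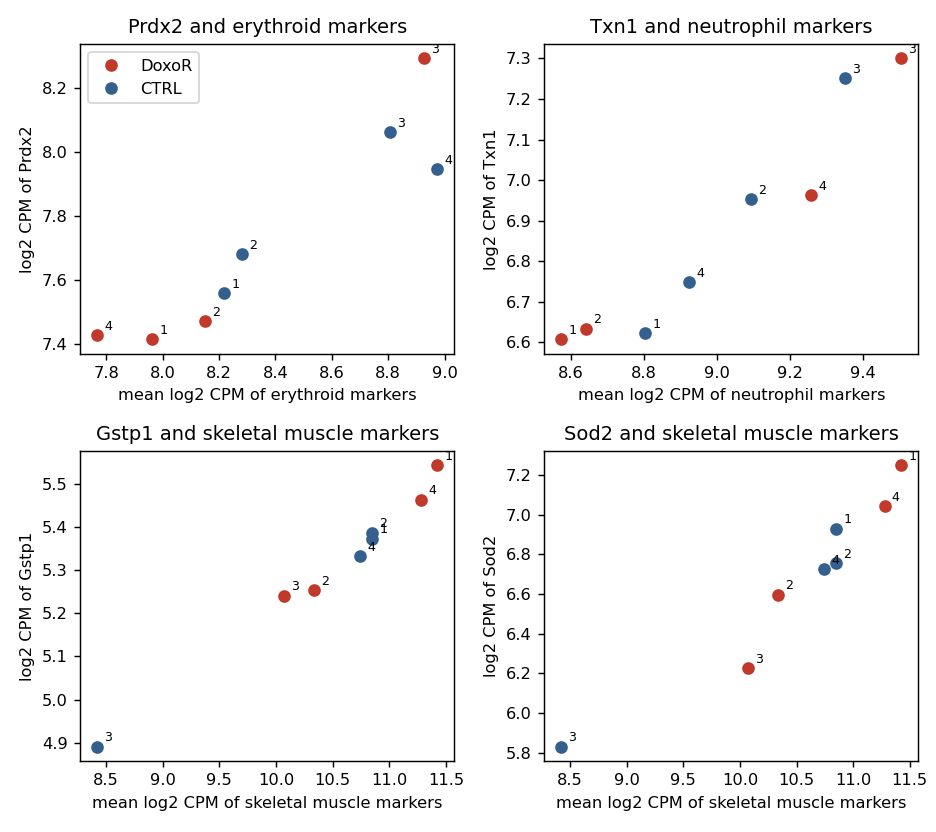
Log2 CPM of Prdx2, Txn1, Gstp1 and Sod2 (vertical axes) against the mean log2 CPM of the marker list named on each horizontal axis, for 8 libraries (DoxoR red, CTRL blue, numbers are replicates). Over all 8 libraries Pearson r lay between 0.93 and 0.99, and no fit within a group was made.

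The genes around the pathway were followed through 7 further lists of 91 genes, of which 90 were tested. Of these 0 passed the test (adjusted p in edgeR's quasi-likelihood test), and 5 had an unadjusted p under 0.05 (5.56%, against 5.36% of all genes), 2 higher and 3 lower in DoxoR. The groups did not overlap for 3 of them, Dpep2, Nxn and Aifm2, all higher in DoxoR. That is 3.33% of the list, close to the 3.59% of all genes. Of the 21 other genes of glutathione metabolism, 12 lay above and 9 below 0. Dpep2, a membrane dipeptidase, averaged 7.44 ± 0.310 CPM in DoxoR and 5.15 ± 0.633 CPM in CTRL bones (SD, n = 4 each), and every DoxoR bone was above every CTRL bone. The log2 difference was 0.53 ± 0.13 (SE, adjusted p of 0.703 by edgeR's quasi-likelihood test). Hpgds, the glutathione-dependent prostaglandin D synthase of mast cells and macrophages, averaged 25.1 ± 2.67 and 37.6 ± 12.6 CPM in DoxoR and CTRL bones (SD, n = 4 each), with CTRL 3 and CTRL 4 high. Macrophage markers lay on the same side, 8 of 8 below 0, with sums between 337 and 484 CPM in DoxoR and between 389 and 658 CPM in CTRL bones. Their part in the Hpgds value was not tested.

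Of the 12 other NRF2 targets, 6 lay above and 6 below 0. Hmox1, haem oxygenase, stood at 55.7, 78.8, 69.6 and 55.7 CPM in DoxoR 1 to 4 and at 69.8, 62.8, 118 and 143 CPM in CTRL 1 to 4. The high libraries were CTRL 3 and CTRL 4, the other pair of CTRL bones than for Slc7a11. Aifm2, a ferroptosis suppressor that works apart from glutathione, averaged 8.84 ± 0.552 and 7.14 ± 0.759 CPM in DoxoR and CTRL bones (SD, n = 4 each), and its groups did not overlap. Mt2, a metallothionein, had a log2 difference of -0.93 ± 0.48 (SE), with 38.7, 27.4, 19.9 and 16.4 CPM in DoxoR 1 to 4 and 62.2, 88.1, 27.6 and 17.4 CPM in CTRL 1 to 4. Mt1, Mt2, Slc7a11 and Srxn1 were each highest in CTRL 1 and CTRL 2, and Mt1 and Mt2 are named after their values were seen.

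In the remaining lists 0 genes passed the test. Of the 17 other thioredoxin-fold and linked genes 14 lay above and 3 below 0 (17.6% below, against 42.8% of all genes), with Nxn, nucleoredoxin, at 0.27 ± 0.14 and groups that did not overlap, and Msrb1, a methionine sulfoxide reductase, at 0.27 ± 0.18 (log2 ± SE). Among the 8 genes of NADPH supply, 6 above and 2 below 0, G6pdx, the entry of the pentose phosphate route, was at 0.26 ± 0.22 and Pgd at 0.17 ± 0.17 (log2 ± SE). Among the 9 partners of NRF2, 4 lay above and 5 below 0. Bach1, a repressor of NRF2 targets, was at -0.20 ± 0.12 and Nfe2l1, a relative of Nfe2l2, at 0.47 ± 0.27 (log2 ± SE). Maff, a small MAF partner, had the most negative value of that list, -0.62 ± 0.59 (log2 ± SE), and is named after its value was seen. Of the 14 genes of selenoprotein synthesis and other selenoproteins 10 lay below 0, with Selenop, the selenium carrier, at -0.41 ± 0.22 and Selenow at 0.54 ± 0.30. Of the 9 oxidant sources, 6 above and 3 below 0, the oxidase gene Nox4 was at 0.52 ± 0.27 and Rac2, a subunit of the phagocyte oxidase, at 0.25 ± 0.19 (log2 ± SE).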

How the data were processed

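Bone RNA from 8 mice, 4 DoxoR and 4 CTRL, was deposited by the authors as estimated counts per gene, all whole numbers. Per the submitters' processing notes, STAR 2.5.3a and RSEM 1.3.0 were used and the build was GRCh38, which is human, while the identifiers are mouse genes. All 57 member identifiers matched GENCODE M21 (GRCm38) with their version, and it gave positions and exon lengths. Per the labels' protocols the kit marks strand and the adaptors carry molecular identifiers. The sources used here do not say whether the counting used either. Counts were filtered with filterByExpr (minimum count 10, minimum total count 15), scaled by TMM and tested with edgeR 4.0.16 (R 4.3.3), robust quasi-likelihood, two-sided, with Benjamini-Hochberg adjustment over all 17035 genes and a threshold of 0.05. Standard errors were taken as the log2 fold change over the root of F. Alternatives included DESeq2 1.42.0 and voom in limma 3.58.1. Log2 CPM for correlations used a prior count of 2. Each mouse is a replicate, and the number of mice limits the precision. The members, lists and motifs were chosen with earlier results of these data known. Named were the 12 members with the smallest p, 21 fixed members, and up to 2 genes of each further list with the smallest p; Mt1, Mt2, Ugdh, Maff, Gpx5 and its related genes were added after their values were seen. The labels do not say that replicate numbers pair the mice, and the main test used no pairing. Sequences are from RefSeq (GRCm38.p6); Gclc, Gsr, Gsta4, Gstt2, Prdx6 and Sod3 had no window in the table. Alternatives were other scalings, filters and tools, covariates for marrow and muscle, a replicate block and each library left out.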

Additional observations from a re-analysis of the deposited data

Results flagged for a closer look

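Of 56 groups of 4 libraries examined for the named members and Gpx5, 3 held a library far from the others, and chance alone marks about 1 group in 20. In the DoxoR group, Prdx2 had DoxoR 3 at 313 CPM and the other libraries between 171 and 177 CPM, a gap of 0.951 of the group's range. Gpx1 had DoxoR 3 at 794 CPM and the others between 418 and 472 CPM, a gap of 0.857 of the range. Gpx5 had DoxoR 1 at 0.131 CPM, which is 3 counts, and the others at 0, a gap of 1 range. With the others at 0, any count in DoxoR 1 gives this gap, so the Gpx5 flag is uninformative. DoxoR 3 was also the DoxoR library with the highest erythroid and neutrophil marker means.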

How the results depend on the processing

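The count of members past an adjusted p of 0.05 was 0 under all 19 alternatives, as was that of the 90 further pathway genes. Over all genes it was 1 with no filter and 29 in DESeq2. Members with an unadjusted p under 0.05 were 4 with all libraries, against 5.36% of all genes. They were 2 with library size as the only scaling (4.03% of all genes) and 7 with the replicate block (8.61%). With 1 library left out they were between 2, without DoxoR 4 (3.68%), and 7, without DoxoR 3 (7.73%). Members whose groups did not overlap, 0 with all libraries, were 1 with library size only (2.62% of all genes) and 1 with no filter (2.77%). They were between 0 and 7 with 1 library left out, against between 4.95% and 10.7% of all genes. With CTRL 1 and CTRL 2 left out together, an alternative chosen after seeing the data, they were 7 (11.3%). Slc7a11 kept an unadjusted p under 0.05 under 18 of 19 alternatives, Gclc under 17, Gstm2 under 16 and Gclm under 12. The exception for Slc7a11 was CTRL 1 and CTRL 2, its highest libraries, left out together. These genes were picked by their p in the main fit and the alternatives reuse the same libraries, so the tallies are no separate support. Correlations past the threshold, 7 with TMM, were 16 with library size only. The same-numbered libraries of the groups deviated together with correlations between -0.27 and 0.43, and the numbers share no stated source, so the block was not used. The median log2 fold change of the members stayed within the spread between libraries (0.084) under every alternative.

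The directions that turned were those of members near 0 and of Srxn1 and Sod2, and the cause was not tested. Gss turned to -0.0093 with DESeq2 size factors, -0.042 with library size only, -0.010 with no filter, -0.019 without haemoglobin genes, -0.0085 in DESeq2 and -0.025 without CTRL 1 and CTRL 2 together, and Nqo1 under the same first 5 to -0.0092, -0.041, -0.0090, -0.019 and -0.0082. Txnrd1 was -0.011 with library size only. Gpx4 was 0.0062 in limma-voom and 0.0021 with the replicate block. With the marrow covariate Gpx1 was 0.15, Gpx4 0.024, Prdx2 0.058, Txn1 0.14, Sod1 0.025, Sod2 -0.029 and Nqo1 -0.014. With the muscle covariate Gpx1 was 0.089, Gpx4 0.026, Prdx1 0.00039, Txn1 0.12, Txnrd1 -0.048, Sod1 0.031, Sod2 -0.040 and Nqo1 -0.064. The marrow covariate also left Gpx3 at 0.065, Gpx7 at 0.099, Gsta4 at 0.18 and Cat at -0.077, and the muscle covariate left Prdx2 at -0.0079, Txn2 at 0.13 and Keap1 at 0.11. Srxn1 was 0.28 without CTRL 1 and CTRL 2 together, its highest libraries, so that turn follows from the choice. With 1 library left out, Gss ran from -0.076 to 0.027, Gpx1 from -0.33 to 0.035, Txn1 from -0.19 to 0.083, Nqo1 from -0.093 to 0.088, Gpx4 from -0.096 to 0.047, Gsr from -0.059 to 0.12, Txnrd1 from -0.13 to 0.096, Sod1 from -0.090 to 0.0047 and Sod2 from -0.014 to 0.34.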
